A study of Mus musculus with 6 samples.

Results

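Reads on the precursor genes of the let-7 family and of the long-known, low-numbered mouse microRNAs were examined in small extracellular vesicles (sEV), the membrane-bound particles that cells release. The members are all genes that GENCODE M21 types as miRNA and whose symbol starts with Mirlet7, or is Mir followed by a number between 1 and 223 with any suffix. They are 199 of the 53379 genes in the deposited tables, which hold 2003 other miRNA genes. The vesicles came from wild-type (WT) mouse embryonic cortical neurons. The 3 HypEV libraries carry the treatment label OGD/R and come from neurons under hypoxia, and the 3 NorEV libraries carry the label control and come from neurons under normoxia. Both groups share genotype and cell type, and their total RNA was prepared with a kit for long RNA. Nothing in the labels says that replicates came from separate cultures, so the p-values given here cover the spread among the sequenced libraries and perhaps only technical variation. Fewer vesicles of a kind and less RNA per vesicle cannot be told apart in such samples.

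A microRNA gene is transcribed into a long primary RNA, from which the nuclear enzyme Drosha cuts a short hairpin. Dicer trims that hairpin to a mature microRNA, which guides an Argonaute protein to messages that pair with its seed, the bases near its 5′ end. In cortical neurons miR-9, miR-124 and let-7 are known for their part in differentiation and in the timing of development, and vesicles are known carriers of mature microRNAs. A library of long RNA is not made to hold the mature forms, so the values here are reads counted on the annotated hairpin, and which form of the RNA gave a read was not tested.

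The hairpin with most reads of all members was that of Mir136, shown here with the bases of both mature arms in capitals. All sequences are from RefSeq on GRCm38.p6, whose table held 182 of the 199 members and not the other 17.
Mir136 hairpin: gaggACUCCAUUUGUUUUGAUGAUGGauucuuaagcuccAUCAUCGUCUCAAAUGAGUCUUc
The mature sequences of the members that the results turn on follow, with the seed (bases 2 to 8) in capitals. The first 5 belong to the precursors with most reads, and the next 2 to precursors whose groups did not overlap.
mmu-miR-136-5p: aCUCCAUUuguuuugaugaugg
mmu-miR-7b-5p: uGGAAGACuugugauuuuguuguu
mmu-miR-181d-5p: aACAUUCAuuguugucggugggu
mmu-miR-196a-5p: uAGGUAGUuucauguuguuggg
mmu-miR-135a-5p: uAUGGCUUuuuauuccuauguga
mmu-miR-217-5p: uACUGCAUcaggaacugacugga
mmu-miR-98-5p: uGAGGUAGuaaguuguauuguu
The next 3 stand for microRNAs known from development, from neurons and from the response to low oxygen.
mmu-let-7a-5p: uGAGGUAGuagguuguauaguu
mmu-miR-9-5p: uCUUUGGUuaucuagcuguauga
mmu-miR-210-3p: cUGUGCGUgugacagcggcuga

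Precursors that share a seed can pair with overlapping sets of messages, and the families of the precursors with most reads are given here. The seed GGAAGAC is in 3 precursors, of which Mir7b held 127 reads over the 6 libraries, Mir7-1 held 2 and Mir7-2 none. The seed ACAUUCA of the miR-181 family is in 6 precursors with 68 reads, and Mir181d alone had 63 of them. The seed AGGUAGU of the miR-196 family, which lies in the Hox clusters, is in 3 precursors, and all 56 reads were on Mir196a-1. The let-7 seed GAGGUAG was found in 12 precursors, of which 8 had a read, with 48 reads in all. These 12 leave out Mirlet7a-2 of the let-7 family, which had 2 reads. Its absence from the count does not show that it lacks the seed. Other seeds were evenly split, such as UGUGCUU with 3 reads each on Mir218-1 and Mir218-2, and some partners without a read, such as Mir196b and Mir181b-1, lie in same-strand exons of other genes, where few members had reads.

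Reads on these genes were few in every library. The deposited values are FPKM, and 1 read on a hairpin of 80 nucleotides was worth between 5.84 and 11.4 FPKM, depending on the library, so reads per precursor are given first throughout. They were recovered from the steps of the FPKM values and were whole numbers for each of the 199 members. Members are 58 to 122 nucleotides long, with a median of 82. HypEV replicates 1 to 3 had 148, 238 and 152 reads on members, and NorEV replicates 1 to 3 had 212, 267 and 308. These stood among 2141611, 1445674 and 1320916 reads on genes in HypEV, and 1092724, 1413374 and 1494499 in NorEV.

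At least 1 read in any library fell on 98 of the 199 members (49.2%), and on 1132 of the 2003 other miRNA genes (56.5%). Of the members with reads, 40 had them in 1 library only, 44 had 1 to 3 reads in sum, and 28 had 10 or more. Mir136, Mir7b, Mir181d, Mir196a-1 and Mir101b were the 5 with a read in all 6 libraries. The first 4 of these held 635 of all 1325 reads on members (47.9%), and Mir136 alone held 389 (29.4%). A count of 0 in a library allows up to 3 reads, counting error only, so a member without a read is not shown to be absent.

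**Figure D1:**
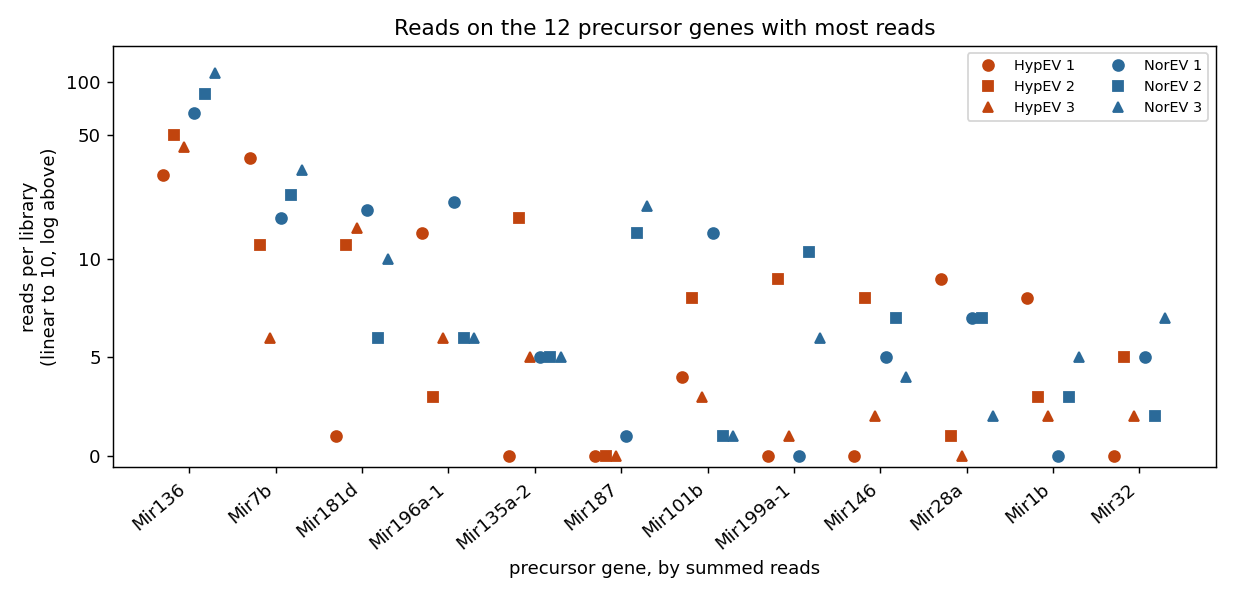
Reads per library (vertical axis, linear to 10 and logarithmic above) on the 12 precursor genes with most reads, with HypEV libraries in orange left of NorEV libraries in blue and 1 symbol shape per replicate number. Mir136 stands above all others in 5 of the 6 libraries, and only for Mir136 and Mir187 do the NorEV points all lie above the HypEV points.

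Mir136 lies on chromosome 12 at 109595327 to 109595388 (GRCm38, plus strand), in the imprinted Dlk1-Dio3 region. The hairpin is inside an exon of Rtl1, a retrotransposon-derived gene of the opposite strand, and its mature form is among the microRNAs known to target the Rtl1 message. It had 30, 50 and 43 reads in HypEV and 67, 86 and 113 in NorEV. The groups did not overlap, and every HypEV library was below every NorEV library. Its FPKM averaged 436 ± 183 in HypEV and 1063 ± 135 in NorEV (SD, n = 3 each). The log2 fold change, HypEV over NorEV, was -1.38 ± 0.77 (SE), with an adjusted p of 0.741 in limma. Scaled to each library's reads outside the Gm23935 family (RPM), which is described further on, it had 27.8, 35.3 and 43.1 RPM in HypEV, against 64.1, 61.2 and 75.8 RPM in NorEV, and the groups again did not overlap.

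The hairpins around it held far fewer reads than Mir136. Rtl1 on the other strand had 49, 22 and 20 reads in HypEV and 24, 43 and 59 in NorEV, over a transcript of 6358 nucleotides, and its groups overlapped. Mir3071, a hairpin annotated on the opposite strand at the same place, had none. The nearest hairpins on the strand of Mir136, whose positions and not whose values chose them, were Mir432 with 4 reads, Mir434 with 6, Mir127 with 10, Mir433 with 15 and Mir431 with none over the 6 libraries. Over the 6 libraries, 4 members of the region (Mir136, Mir127, Mir154 and Mir134) held 408 reads, with Mir134 at 0. Rian, a maternally expressed long RNA of the region, had 103, 168 and 72 reads in HypEV and 66, 97 and 101 in NorEV. In RPM outside the Gm23935 family, Rian had 95.4, 118.5 and 72.2 in HypEV and 63.1, 69.0 and 67.8 in NorEV. At that scaling Rian lay higher in every HypEV library, while Mir136 lay lower. The share of all genes without overlap was not counted there. Whether the counting used strand is not given in the sources used here. Mir30e and Mir30f, which share coordinates on opposite strands of chromosome 4, had 9 reads and none, so counts there differed by strand. How fully reads of Mir136 and Rtl1 were separated was not tested.

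Mir7b, Mir181d, Mir196a-1 and Mir135a-2 followed Mir136 in reads, and none separated the groups. Mir7b, of a family known from the hypothalamus and from the repression of alpha-synuclein, lies on chromosome 17 at 56242988 to 56243098, outside any other gene of the annotation. It had 37, 12 and 6 reads in HypEV and 17, 23 and 32 in NorEV, or 90.4 ± 58.9 FPKM in HypEV and 160 ± 28.8 FPKM in NorEV (SD, n = 3 each). HypEV replicate 1 was the highest library in reads, and the groups overlapped. The log2 fold change was -1.01 ± 0.55 (SE; limma, adjusted p = 0.739).

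Mir181d is in an intron of the Nanos3 gene model on chromosome 8 (84178716 to 84178787, minus strand), beside Mir181c. It had 1, 12 and 15 reads in HypEV and 19, 6 and 10 in NorEV, and Mir181c had none in any library. The single read in HypEV replicate 1 sets the sign of its log2 fold change, which was -1.10 ± 1.11 (SE) over all libraries and 0.29 without that library (limma, adjusted p = 0.801 and 0.985). Mir196a-1, of the Hoxb cluster on chromosome 11 (96265164 to 96265265), had 14, 3 and 6 reads in HypEV and 21, 6 and 6 in NorEV, with NorEV replicate 1 the highest. Mir135a-2, in an intron of the long non-coding RNA gene Rmst on chromosome 10 (92072086 to 92072185), had 0, 17 and 5 reads in HypEV and 5, 5 and 5 in NorEV. Its copy Mir135a-1, with the same 5p sequence, had 10, 0 and 0 reads in HypEV and 0, 0 and 2 in NorEV. The groups overlapped for each of these 4 precursors.

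The rest of the 10 members with most reads showed the same scatter, except Mir187. Mir101b, whose mature form is known for repressing Ezh2, had 4, 8 and 3 reads in HypEV and 14, 1 and 1 in NorEV. Mir199a-1, opposite an intron of Dnm2, had 0, 9 and 1 in HypEV and 0, 11 and 6 in NorEV. Mir146, known from the feedback on inflammatory signalling, had 0, 8 and 2 in HypEV and 5, 7 and 4 in NorEV. These 3 overlapped between groups, as did Mir28a with 9, 1 and 0 reads in HypEV and 7, 7 and 2 in NorEV.

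Whether a member differed between HypEV and NorEV was tested with limma on log2(FPKM + 1) across the 44125 genes whose mean FPKM was 1 or more, and this gave no call among members. All 98 members with a read passed that filter, since 1 read on a hairpin is already many FPKM, and the 101 without a read could not be tested. At an adjusted p under 0.05, 0 of the 98 were called, against 7 of all genes tested (0.0159%). At an unadjusted p under 0.05 there were 7 members, 1 higher in HypEV and 6 lower, while 6.76% of all genes passed (0.635% higher and 6.13% lower). limma-voom on the recovered reads called 1 member, Mir187, with 0.546% of all genes called, and none once the Gm23935 family was taken out of the totals, where 0.142% of all genes were called. Without HypEV replicate 2 the limma fit on FPKM called Mir139 (adjusted p = 0.0498), and without NorEV replicate 1 it called Mir187 (adjusted p = 0.0472).

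Mir187, on chromosome 18 at 24429110 to 24429170, had the smallest p of the members. It had no read in any HypEV library, and 1, 14 and 20 reads in NorEV. With a floor of 3 reads over the HypEV group, it was 10.3-fold lower in HypEV in RPM outside the Gm23935 family. That value takes the NorEV reads as exact and leaves out the spread among libraries, so it is not a lower bound. The adjusted p was 0.117 in limma on FPKM (log2 fold change -6.38 ± 0.92, SE), 0.0205 in limma-voom, and 0.0910 in limma-voom without the family. The 3 NorEV libraries were far apart, with replicate 1 at a single read.

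Mir1a-1, a muscle microRNA gene on chromosome 2 at 180389048 to 180389124, was next. No HypEV library had a read on it, and NorEV libraries had 5, 4 and 1. It was 2.96-fold lower in HypEV by the same floor, with the NorEV reads again taken as exact (limma, log2 fold change -4.81 ± 0.73, adjusted p = 0.131). Mir98, a let-7 relative in an intron of the ubiquitin ligase gene Huwe1 on the X chromosome (151913214 to 151913321), had 0, 0 and 2 reads in HypEV and 4, 4 and 3 in NorEV (limma, log2 fold change -3.42 ± 1.01, adjusted p = 0.619). Mir139, in an intron of Pde2a, had 0, 5 and 0 in HypEV and 6, 2 and 4 in NorEV, and its groups overlapped (limma, adjusted p = 0.720). The other members with small p on the lower side rested on few reads. Mir219b and Mir219c had none in HypEV and 6 and 2 reads in NorEV, Mir122 had none in HypEV and 2 in NorEV, and Mir30c-1 had 5 in HypEV and 13 in NorEV.

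Mir217 was the single member whose HypEV libraries all lay above the NorEV libraries. It lies in an intron of the non-coding gene Gm12082 on chromosome 11 (28763728 to 28763835) and is known from the exocrine pancreas. It had 3, 5 and 5 reads in HypEV and 0, 1 and 0 in NorEV, with FPKM of 26.7 ± 12 in HypEV and 2.18 ± 3.78 in NorEV (SD, n = 3 each). The log2 fold change of 3.70 ± 0.86 (SE) had an adjusted p of 0.494 in limma. The other members of smallest p on the higher side were Mir26a-1 with 0, 1 and 5 reads in HypEV and none in NorEV, Mir28b with 2, 2 and 4 in HypEV and 0, 0 and 5 in NorEV, and Mir148b with 0, 3 and 3 in HypEV and 0, 1 and 0 in NorEV. Mir188, Mir200a, Mir200c and Mir28c each had all of their 5 to 9 reads in a single HypEV library.

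In all, 1 of the 98 tested members (Mir217) lay higher in every HypEV library than in any NorEV library, beside 1.1% of all genes. Another 4 (Mir136, Mir187, Mir1a-1 and Mir98) lay lower in every HypEV library, beside 10.8% of all genes. Of these 5, Mir217, Mir98 and Mir136 had at least 3 reads in each library of the higher group.

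**Figure D2:**
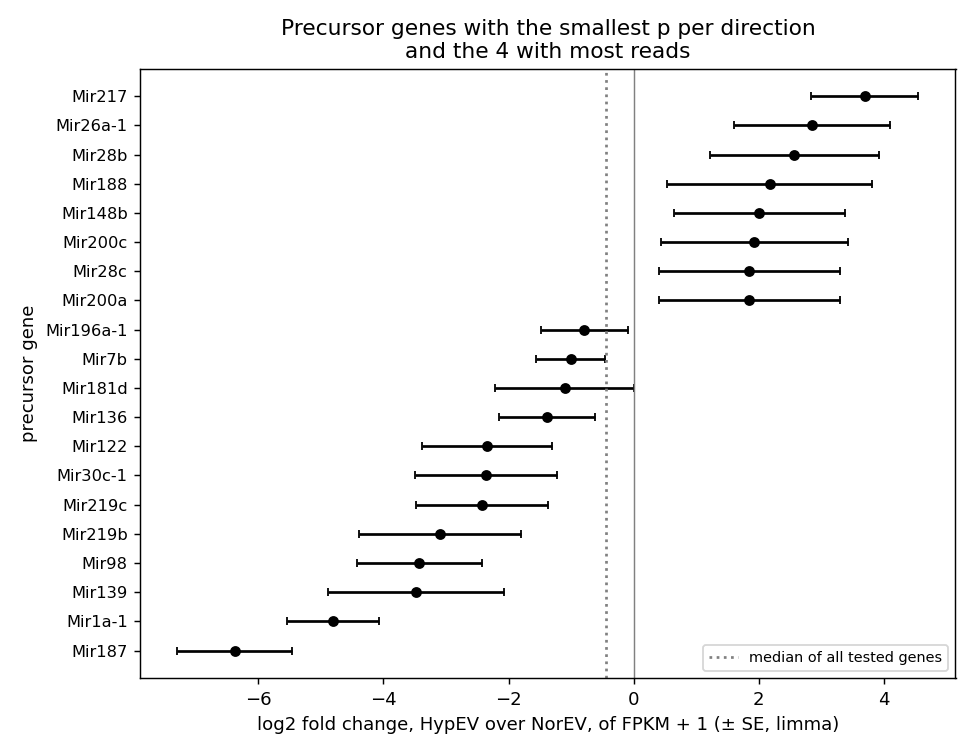
Log2 fold change of FPKM + 1, HypEV over NorEV (horizontal axis, with SE bars from limma), for the 8 precursor genes of smallest p in each direction and the 4 with most reads. Mir187 at -6.38 and Mir1a-1 at -4.81 lie furthest left, Mir217 at 3.70 lies furthest right, and the dotted line marks the median of all tested genes at -0.44.

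The median log2 fold change of the 98 members was -0.88, beside -0.44 over all tested genes, with 35 members above 0 and 63 below. Of all 44125 genes tested, 11093 were above 0 and 33032 below, so a smaller part of members than of all genes lay below 0. That general shift moved with the scaling. Centring each library on its median put all genes at 0.01 and members at -0.43, and taking the Gm23935 family out of the totals put them at -0.12 and -0.70. The Gm23935 family is 6 near-identical short genes that held 49.6, 1.97 and 24.5% of reads on genes in HypEV and 4.34, 0.561 and 0.303% in NorEV, and every FPKM of a library is lowered by such a share. Its part in single results was not tested beyond the values given here without it.

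As a share of all reads on genes, members held 0.00691, 0.0165 and 0.0115% in HypEV and 0.0194, 0.0189 and 0.0206% in NorEV. The groups did not overlap, and the exact permutation test gave p = 0.1 (two-sided, n = 3 each; adjusted p = 0.267 over 8 such tests), the smallest p that 3 against 3 allows. Of reads outside the Gm23935 family the shares were 0.0137, 0.0168 and 0.0152% in HypEV and 0.0203, 0.0190 and 0.0207% in NorEV, again without overlap (exact permutation p = 0.1). Without Mir136 the groups overlapped, at 0.0109, 0.0133 and 0.0109% in HypEV and 0.0139, 0.0129 and 0.0131% in NorEV (exact permutation p = 0.3). Mir136 made up 20.3, 21 and 28.3% of member reads in HypEV and 31.6, 32.2 and 36.7% in NorEV (exact permutation p = 0.1). The number of members with a read was 23, 46 and 32 in HypEV and 27, 50 and 56 in NorEV (exact permutation p = 0.4), and 22.5, 41.8 and 32.0 in HypEV and 26.8, 44.3 and 47.3 in NorEV once every library was thinned to 997817 reads outside the family (exact permutation p = 0.4).

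**Figure D3:**
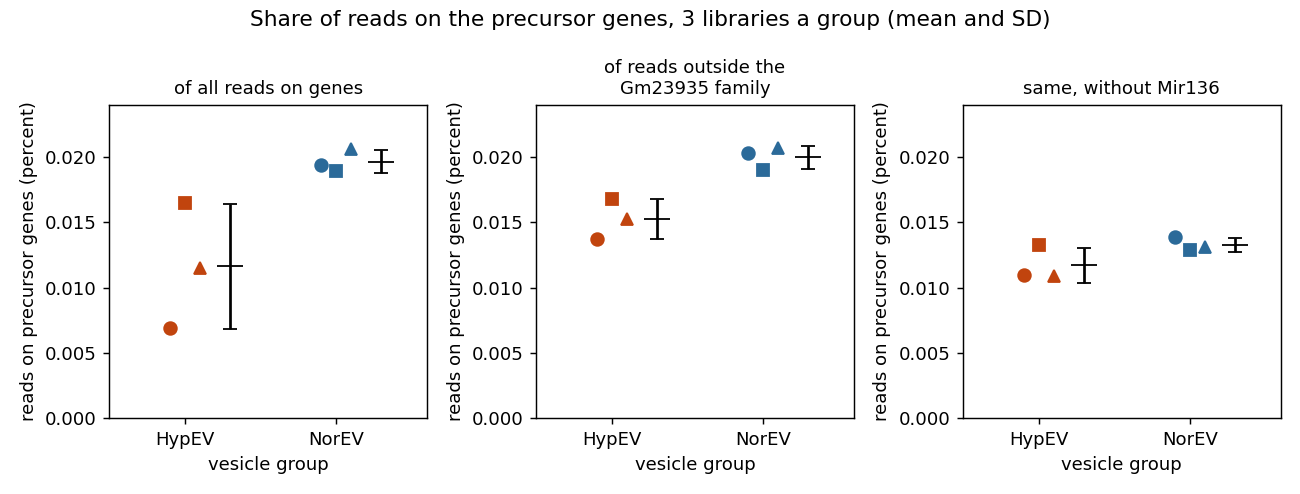
Percent of reads on the 199 precursor genes in each library, of all reads on genes (left), of reads outside the Gm23935 family (middle) and the same without Mir136 (right), with the mean and SD of 3 libraries beside the points. HypEV lies below NorEV without overlap in the left and middle panels, and the points overlap in the right panel.

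Per length, with the reads of all members set over their summed length, the level was 4.15, 9.89 and 6.91 FPKM in HypEV and 11.7, 11.4 and 12.4 FPKM in NorEV. Without Mir136 it was 3.32, 7.84 and 4.98 FPKM in HypEV and 8.0, 7.72 and 7.87 FPKM in NorEV. The other miRNA genes had 11.3, 15.9 and 16 FPKM in HypEV and 21.8, 14.2 and 15.3 FPKM in NorEV. Protein-coding genes had 5.42, 10.5 and 7.84 FPKM in HypEV and 10.1, 10.5 and 10.6 FPKM in NorEV. Per length the hairpins other than Mir136 stood below protein-coding genes in each library when all members entered. Over the members outside same-strand exons of other genes, again without Mir136, the level was 4.88, 11 and 6.89 FPKM in HypEV and 11.6, 10.9 and 11.2 FPKM in NorEV, above protein-coding genes in 4 of the 6 libraries.

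Whether a member had reads went with where it lies in the annotation. Of 63 members that overlap an exon of another gene on the same strand, 7 had a read, with 36 reads in all. Of the 47 that lie wholly inside such an exon, 5 had a read, with 33 reads, 20 of them on Mirlet7a-1. Of the 136 at all other positions, 91 had a read, with 1289 reads. By position, reads fell on 8 of 8 members in introns of the opposite strand, 10 of 13 in exons of the opposite strand, 47 of 72 in introns of the same strand, and 26 of 43 outside any other gene. HTSeq, the counter that the deposited tables name, by default leaves out a read that overlaps more than 1 gene. The mode used is not given in the sources used here, and its part in these zeros was not tested.

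**Figure D4:**
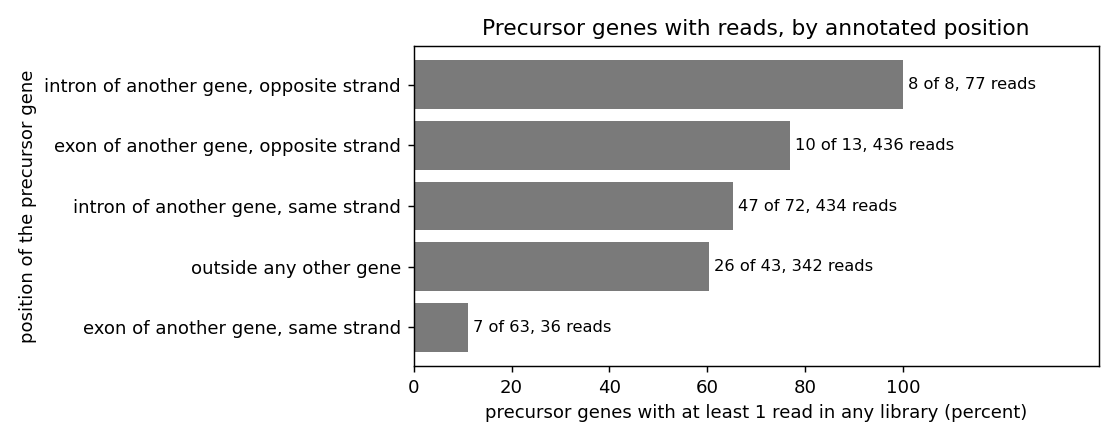
Percent of precursor genes with at least 1 read in any library (horizontal axis), by position in the GENCODE M21 annotation, with counts and reads beside each bar. Members in a same-strand exon of another gene stand lowest, with 7 of 63.

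Of the 20 members of a list of microRNAs known from neurons, 9 overlap same-strand exons and none of those 9 had a read. They include the 3 precursors of miR-124, the most neuron-typical microRNA, and Mir9-2, Mir137, Mir138-1, Mir138-2, Mir134 and Mir129-1. The exon covers 4.4% of Mir124a-3, 24.8% of Mir124a-2 and the whole of the others. Mir124a-1, Mir124a-3 and Mir9-2 also have near-identical copies elsewhere, a further limit on their counts. Of the other 11, 9 had a read. Mir9-1, in an intron of Gm3764, led with 6, 0 and 1 reads in HypEV and 0, 0 and 1 in NorEV. Mir129-2, Mir218-1, Mir218-2, Mir132, Mir128-1, Mir128-2 and Mir129b followed with 1 to 5 reads each over the 6 libraries. The list held 10, 2 and 3 reads in HypEV and 5, 1 and 5 in NorEV. As a share of member reads it was 6.76, 0.840 and 1.97% in HypEV and 2.36, 0.375 and 1.62% in NorEV, with overlap (exact permutation p = 0.5, n = 3 each), and HypEV replicate 1 alone set the higher HypEV mean.

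Some of the genes that overlap these hairpins without a read did have reads, and not all of them were examined. The hosts named here were chosen after their values were seen. Mir124a-1hg had 63, 90 and 29 reads in HypEV and 46, 54 and 66 in NorEV over 4103 nucleotides. Mir124-2hg had 25, 23 and 13 in HypEV and 27, 31 and 41 in NorEV. C130071C03Rik, which holds Mir9-2, had 50, 76 and 76 in HypEV and 36, 43 and 67 in NorEV. Gm27032, which overlaps the end of Mir124a-3, had few, with 0, 1 and 4 in HypEV and 9, 1 and 7 in NorEV. The groups overlapped for Mir124a-1hg, C130071C03Rik and Gm27032. Mir124-2hg was lower in every HypEV library in reads and FPKM, as were 10.8% of all genes in FPKM, but overlapped in RPM outside the Gm23935 family, with 23.2, 16.2 and 13.0 RPM in HypEV and 25.8, 22.1 and 27.5 RPM in NorEV.

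The let-7 family, 11 precursors, had 2, 6 and 7 reads in HypEV and 3, 9 and 8 in NorEV. Of these precursors 7 had a read, and Mirlet7a-1 held 20 of the 35 reads, with 0, 4 and 7 in HypEV and 1, 5 and 3 in NorEV. Mirlet7a-1 lies wholly inside a same-strand exon of 6720427I07Rik. Mirlet7b, Mirlet7c-2 and Mirlet7f-2 had 3 each over the 6 libraries, and Mirlet7a-2, Mirlet7c-1 and Mirlet7g had 2 each. Mirlet7a-1 is nearly identical in sequence to Mirlet7f-2, so reads could be split between them. The let-7 share of member reads was 1.35, 2.52 and 4.61% in HypEV and 1.42, 3.37 and 2.60% in NorEV, with overlap (exact permutation p = 1, n = 3 each). The sign of its difference turned with single libraries, at -0.525 percentage points without HypEV replicate 3 and -0.158 without NorEV replicate 1, beside 0.365 over all.

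MicroRNAs known from other cell types also had reads. Muscle microRNAs (miR-1, miR-133, miR-206 and miR-208) held 49 reads on 5 of 10 precursors, with 8, 6 and 2 in HypEV and 5, 19 and 9 in NorEV. Most of these were on Mir1b and Mir1a-2, which overlap on opposite strands of chromosome 18, with 21 and 12 reads, and on Mir1a-1. Mir1b also lies in an intron of Mib1 on the same strand, and whether its reads came from Mib1 was not tested. Pancreas microRNAs held 16 reads, 14 of them on Mir217. Endothelial and smooth muscle microRNAs had 0, 10 and 1 reads in HypEV and 0, 1 and 1 in NorEV, so HypEV replicate 2 alone held 10 of 13, on Mir143, Mir145a, Mir145b and Mir126b. Mir126b lies on the strand opposite Mir126a, which had no read. Epithelial microRNAs had 0, 7 and 5 reads in HypEV and 0, 0 and 1 in NorEV, of which Mir200a took 6 and Mir200c took 5, each in 1 library. Blood microRNAs, led by Mir142b, had 11 reads, Mir122 of liver had 2, and the miR-183 cluster of sensory cells had 1, on Mir96. Mir142b lies on the strand opposite Mir142, which had no read. Per summed length, the muscle list stood above protein-coding genes in NorEV replicate 2 only, at 15.4 against 10.5 FPKM. The pancreas list did so in HypEV replicate 3 only, and the endothelial and smooth muscle list in HypEV replicate 2 only. The epithelial, blood and sensory lists did so in no library. Mir122 did so in NorEV replicate 2, on 1 read.

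Among lists tied to stress and growth, Mir210, a known target of the hypoxia-inducible factor HIF, had 3, 0 and 0 reads in HypEV and 0, 1 and 3 in NorEV. Its groups overlapped at this depth (limma, log2 fold change -1.13 ± 1.35, adjusted p = 0.825). The miR-34 family, whose genes are targets of p53, had 5 reads, 4 of them on Mir34b in HypEV replicate 2. The miR-219 family, known from oligodendrocytes, had none in HypEV and 0, 2 and 7 reads in NorEV. Most were on Mir219b with 6 and Mir219c with 2, which lie on the strand opposite the Mir219a genes. Mir219a-2 itself had 1 read and Mir219a-1 none. The proliferation-linked microRNAs of the miR-17-92 clusters and their relatives had 5 reads on 2 of 15 precursors, and 9 of the 15 overlap same-strand exons. Mir92b, on chromosome 3 and in no cluster, had 3 of these reads, and Mir18b had 2. All 6 hairpins inside Mir17hg had none, while Mir17hg itself had 33, 56 and 26 reads in HypEV and 15, 22 and 23 in NorEV.

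**Figure D5:**
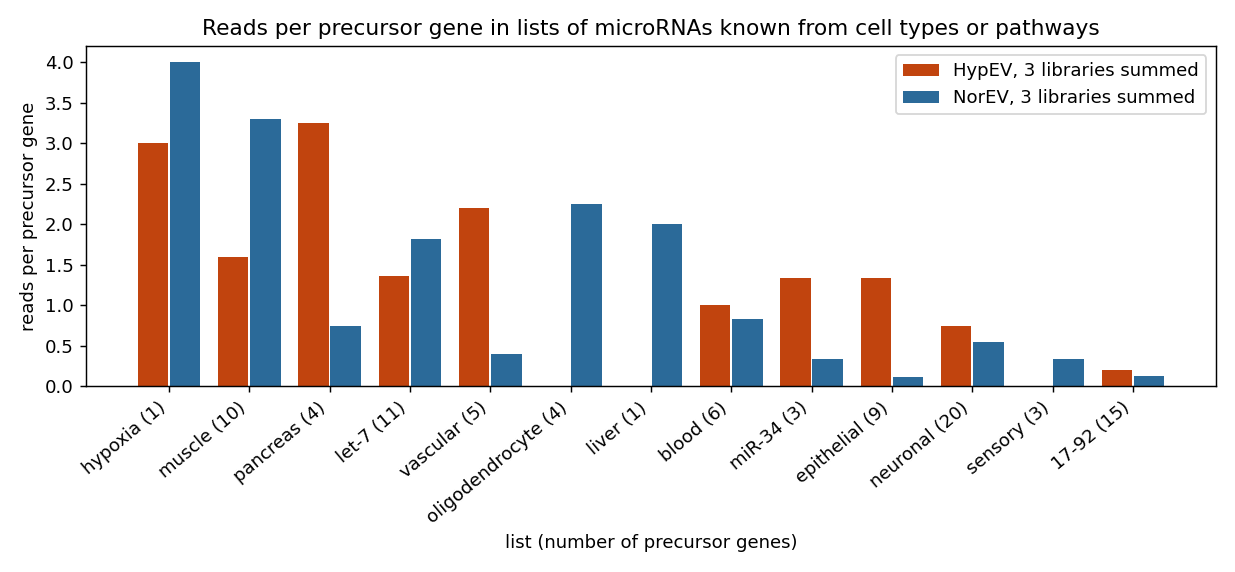
Reads per precursor gene (vertical axis, reads of 3 libraries summed and divided by the number of precursors) for the lists of microRNAs, with HypEV in orange left of NorEV in blue and the number of precursors in brackets. Mir210 of the hypoxia list rests on 7 reads and the neuronal list on 26.

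Neighbouring precursors are often cut from 1 primary transcript. There were 36 clusters of members within 10 kb on the same strand, with 85 members. In 12 of them no member had a read, in 14 a single member had reads, and in 10 every member had a read. Mir30c-1 with 18 and Mir30e with 9 reads, and Mir98 with 13 and Mirlet7f-2 with 3, are examples of clusters with reads on both. On opposite strands of 1 place, Mir142b had 5 reads and Mir142 none, Mir30e had 9 and Mir30f none, and Mir219b had 6 and Mir219a-2 had 1.

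Of the genes that make and use microRNAs, 22 were tested and none was called by limma (0 also at an unadjusted p under 0.05). Of the 18 that limma-voom tested, 0 were called. With the Gm23935 family out of the totals, 1 gene, higher in HypEV, had an unadjusted p under 0.05 in limma, beside 2491 of all 44536 genes tested. In limma-voom without the family 1 gene did, beside 3016 of all 42340 genes tested. As deposited, 2 had a positive and 20 a negative log2 fold change. With each library centred on its median the signs were 14 and 8, and after removal of the Gm23935 family from the totals they were 11 and 11. Over all genes tested the signs were 11093 and 33032 as deposited, 22292 and 21833 with centring, and 19260 and 25276 without the family. Lin28a, which blocks the maturation of let-7, had 7.19, 7.10 and 8.64 FPKM in HypEV and 13.8, 12.3 and 15.8 FPKM in NorEV (limma, adjusted p = 0.724). Xpo5, the exporter of hairpins from the nucleus, had 8.18, 16.6 and 10.8 FPKM in HypEV and 21.7, 22.1 and 17.9 FPKM in NorEV (limma, adjusted p = 0.732). Drosha, the enzyme that frees the hairpin, had 6.74, 7.72 and 4.14 FPKM in HypEV and 9.41, 8.67 and 11.7 FPKM in NorEV. Tnrc6a, an Argonaute partner, had 6.51, 14.2 and 7.59 FPKM in HypEV and 11, 15.2 and 15.6 FPKM in NorEV. Of the 22 genes, 6 (Lin28a, Xpo5, Drosha, Srrt, Ago1 and Ago3) were lower in every HypEV library, beside 10.8% of all genes, and 1 (Ddx5) was higher in every HypEV library, beside 1.1%. After removal of the family, Xpo5 and Ago3 still lay lower and Ddx5 higher without overlap, while Lin28a, Drosha, Srrt and Ago1 overlapped. The share of all genes without overlap was not counted at that scaling, so these genes have no background beside them.

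Markers set the label of the cells in context. No gene of the 10 pan-neuronal markers was at 0 throughout, and their median was 5.69, 9.25 and 10.2 FPKM in HypEV and 8.72, 7.57 and 10.9 FPKM in NorEV. The 7 astrocyte markers had medians of 5.26, 14.6 and 8.52 FPKM in HypEV and 11, 12.6 and 10.9 FPKM in NorEV, and the 7 vascular markers 5.73, 12.8 and 6.26 FPKM in HypEV and 6.79, 9.31 and 11.1 FPKM in NorEV. The 7 liver and muscle genes had medians of 3.72, 10.7 and 2.93 FPKM in HypEV and 7.13, 13.7 and 7.87 FPKM in NorEV, and none of them was at 0 in all libraries. The medians of 6 microglia, 6 oligodendrocyte and 6 erythroid markers lay between 1.95 and 11.9 FPKM, with none of these genes at 0 throughout. The astrocyte median was above the neuronal one in 4 of the 6 libraries. Over their summed length, protein-coding genes had 5.42, 10.5 and 7.84 FPKM in HypEV and 10.1, 10.5 and 10.6 FPKM in NorEV, which is not a median. The neuronal, astrocyte and vascular medians lay on both sides of that level, so the markers do not single out neurons. The marker levels stand beside the muscle, vascular and liver hairpins, and their part in those reads was not tested.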

How the data were processed

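The 6 libraries (3 HypEV, 3 NorEV, grouped by their treatment labels) were read from tables of FPKM per Ensembl gene that the authors deposited, with fragments scaled to gene length and library total. Per the labels' protocols, Trizol was used for the RNA and a long-RNA kit from Epibiotek for the libraries. The deposited file names mention HTSeq. Aligner, genome build, annotation and strand setting are not given in the sources used here.

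Reads were recovered as FPKM times the longest transcript length in GENCODE M21 times a library total. Between 95.7 and 96.1% of values above 0 came out whole within 0.01 reads, and whole reads were found for all members. Intervals and floors (3 reads) cover counting error only, and a fold at a floor takes the reads of the other group as exact. Positions, strand and overlaps came from the M21 annotation (GRCm38), and near-identical copies from blastn 2.17.0 (at least 90% identity over 80% of the length).

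The test was limma 3.58.1 (R 4.3.3) on log2(FPKM + 1), trended eBayes, over genes whose mean FPKM was 1 or more, with Benjamini-Hochberg adjustment over all of them. Fold changes on this scale understate the change of low genes. Values per library were compared with exact permutation tests (SciPy 1.17.1, 20 assignments, two-sided, adjusted over 8). Tested on simulated data, the limma fit on FPKM called more unchanged genes than its threshold allows, and limma-voom called none of them. Alternatives were other pseudocounts, filters and scalings, limma-voom on the recovered reads, a replicate block and leaving out each library. limma-voom without the family and leaving out 3 libraries were chosen after seeing the data.

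Members, lists and tests were chosen with earlier results of these data known. Named are members past the threshold, the 10 with most reads, the 8 of smallest p in each direction, those whose groups do not overlap with at least 3 reads in each library of the higher group, the leading members of each list, and the 4 biogenesis genes of smallest p. Neighbours, hosts, copies and cluster partners are named beside them by position.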

Additional observations from a re-analysis of the deposited data

How the results depend on the processing

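No member was called in limma on FPKM under other pseudocounts, filters or scalings, and 1 (Mir187) in limma-voom. Leaving out single libraries gave 0 to 1 calls among members. Over all genes 7 were called, against 0 with a pseudocount of 0.1 or 10, without a filter, with median centring or without the trend, 231 in limma-voom, 60 in limma-voom without the Gm23935 family, and 0 to 71 on leaving out single libraries, the highest without HypEV replicate 2. The fits without 1 library leave 2 in that group and pool the spread. Log2 fold changes of the 20 members followed kept their sign under the alternatives that gave a value, except Mir181d (-1.91 to 0.29 on leaving out 1 library, above 0 without HypEV replicate 1). Mir188, Mir200a and Mir28c gave no value without HypEV replicate 2, Mir200c none without HypEV replicate 3 (the library with all their reads), and Mir122 and Mir219c none at the filter of 5 FPKM. 3 became calls, Mir187 at -4.36 in limma-voom and -7.57 without NorEV replicate 1, and Mir139 at -5.38 without HypEV replicate 2. The members' median minus that of all genes was -0.435, but 0.337 without a filter, where members without a read enter at 0.

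The let-7 share of member reads differed by 0.365 percentage points and turned to -0.829 over members outside same-strand exons and -0.463 when the 3 libraries richest in Gm23935 reads were dropped. Leaving out 1 library gave -0.525 to 1.10. The neuronal share differed by 1.74 and turned to -0.159 without those 3 libraries, and leaving out 1 library gave -0.0451 to 2.91. The causes were not tested.

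Replicate numbers did not pair the libraries: same-number deviations correlated at 0.0793, 0.142 and -0.0711. With the replicate number as a block, 0 members and 0 of all genes were called.

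Depth limits these values, since 44 of the 98 members with reads rest on 1 to 3.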
